A study of Homo sapiens with 8 samples.

Results

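Amino acid transporter genes of the plasma membrane were followed across 4 kinds of Jurkat cells that differ in CBAP, the protein encoded by TMEM102. The genes were SLC38A5, SLC38A1, SLC38A2, SLC7A1, SLC7A5, SLC7A6, SLC7A11, SLC3A2, SLC1A4 and SLC1A5, which are 10 of the 13453 genes in the table, and all 10 were found in it. SLC38A5 was chosen on its measured values, because it was high in every CBAP-deficient library, so its levels are a description and no test of it is given. The other 9 genes were named beside it as transporters of related substrates, with earlier results of these data known, and were tested with all genes. How many of them were called is therefore a description of the list. Levels are in FPKM, in which the fragments assigned to a gene are scaled by the length of its exons and by the size of the library, and which allows genes of different length to be compared within a library.

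Jurkat is an established human T-cell acute lymphoblastic leukemia line, and the study compared CBAP-expressing with CBAP-deficient cells of it. Total RNA of 2 libraries per condition was sequenced. The shRNA set held sh-Ctrl cells, which carried a non-targeting shRNA, and CBAP knockdown cells, which carried a CBAP shRNA, both as stable clones selected with puromycin. The CRISPR set held CBAP knockout cells and CBAP-reconstituted cells, which are CBAP-KO cells given the CBAP gene back. Both conditions of the CRISPR set therefore carried the edited TMEM102 locus, and the knockout clones had been grown from single cells sorted for GFP. In the study's methods the reconstituted cells received CBAP fused to GFP and the knockout cells GFP alone. Each library bears its own code in the labels, but which CBAP shRNA was in the knockdown libraries is not given in the sources used here, nor is it stated that the libraries came from separate cultures, so p-values measure the spread between these libraries. In RNA from bulk cells, fewer cells with a transcript and less of it per cell cannot be told apart.

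Amino acid transporters set which amino acids a proliferating T cell can take up. SLC38A1, SLC38A2 and SLC38A5 carry small neutral amino acids such as glutamine together with sodium, SLC1A4 and SLC1A5 exchange neutral amino acids, and SLC7A1 carries arginine and lysine. SLC3A2 is the heavy chain that brings the light chains SLC7A5, SLC7A6 and SLC7A11 to the membrane, where they exchange leucine and other large neutral amino acids, cationic amino acids, and cystine for glutamate. Amino acids that enter by these routes feed protein synthesis, and their supply is signalled through the Rag GTPases, which recruit mTORC1 to lysosomes.

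SLC38A5 lies on the minus strand of chromosome X, from 48316920 to 48328648 in GRCh37, the build named hg19 by the study, and is annotated as a protein-coding gene. The 250 bases before its RefSeq start are shown because SLC38A5 had the widest gap between the classes among the members. Those of SLC38A2 are shown because, among the members, it was the other sodium-coupled carrier that was higher in all CBAP-deficient libraries. The sequences are from RefSeq on GRCh38.p14, both from the minus strand and ending at the base before the start, with capitals for an E-box, CACGTG, the palindrome bound by MYC and related factors.
SLC38A5, chrX:48470261-48470510: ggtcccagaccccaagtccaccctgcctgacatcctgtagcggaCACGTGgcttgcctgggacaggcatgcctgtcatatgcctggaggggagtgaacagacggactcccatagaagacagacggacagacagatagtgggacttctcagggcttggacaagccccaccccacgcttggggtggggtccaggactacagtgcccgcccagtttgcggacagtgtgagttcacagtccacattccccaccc
SLC38A2, chr12:46372774-46373023: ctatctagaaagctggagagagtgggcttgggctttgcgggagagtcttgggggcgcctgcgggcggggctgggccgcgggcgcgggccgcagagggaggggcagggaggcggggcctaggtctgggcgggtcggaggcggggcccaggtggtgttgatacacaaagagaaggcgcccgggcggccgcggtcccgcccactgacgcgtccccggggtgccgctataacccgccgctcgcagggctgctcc
The SLC38A5 window held 1 E-box, which began 206 bases before the start, and the SLC38A2 window held none. Among the other members, an E-box began 130 bases before the start of SLC7A5 and 50 bases before a start of SLC1A5. For both of these genes the deficient and expressing libraries overlapped. On either strand, CACGTG was found in 6.34% of 35116 promoter windows of this length. The letters TGATGNAA, which describe an amino acid response element, were in neither window shown and in 3.14% of all windows. Among the members they were found only before another start of SLC1A5, 97 bases away. Bases after the start were not searched, so an element within either gene would have been missed. No measurement in these libraries bears on binding at these sites.

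Facts about the libraries touch what can be read from the members. FPKM summed to between 362082 and 434742 per library, the depth behind a value is unknown, and 606 to 1256 genes had a listed value of 0 in each library. TMEM102 had 4.07 and 4.74 FPKM in sh-Ctrl and 2.69 and 2.89 in CBAP knockdown cells, a log2 change of -0.51 (SE 0.096, adjusted p = 0.0287, limma with Benjamini-Hochberg adjustment), a call that was lost in 9 of 16 alternatives. In the CRISPR set its value was 0 throughout, in CBAP-reconstituted as in CBAP knockout cells, so TMEM102 gave no check of which of these libraries express CBAP. Of 11 T cell markers 10 were in the table, and CD3D ranged from 446 to 553 FPKM. The CBAP-reconstituted libraries stood apart in others: CD28 was at 2.93 and 2.59 FPKM there and at 24.1 to 37.5 in the other 6 libraries, and CD7 at 39.0 and 38.1 against 124 to 204. Of 9 markers of other cell types 3 were listed, with KRT8 at no more than 0.042 FPKM, COL1A1 at 1.07 to 2.15, and CD79A at 0.732 and 1.09 in CBAP-reconstituted cells and at 9.60 to 22.5 elsewhere. Of the T cell markers, 6 of 10 were higher in CBAP knockout than in CBAP-reconstituted cells and none lower, where 23.9% and 25.9% of all tested genes were. In CBAP knockdown against sh-Ctrl cells CD2 was higher (log2 change 0.95, adjusted p = 0.00895), and LCK (-0.43, adjusted p = 0.00669) and ZAP70 (-0.39, adjusted p = 0.0355) were lower. The part of these markers in the results of either set was not tested.

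SLC38A5 was at 0.738 and 0.743 FPKM in the sh-Ctrl libraries and at 14.3 and 17.9 in the CBAP knockdown libraries. It was at 0.212 and 0.229 FPKM in the CBAP-reconstituted libraries and at 19.03 and 20.4 in the CBAP knockout libraries. All 4 deficient libraries were thus far above all 4 expressing ones, in both sets. The mean FPKM was 0.480 ± 0.300 (SD, n = 4) in CBAP-expressing and 17.9 ± 2.59 (SD, n = 4) in CBAP-deficient cells. The ratio of the condition means was 21.8 within the shRNA set and 89.4 within the CRISPR set, and the corresponding differences in log2(FPKM + 1) were 3.29 and 4.08. On log2(FPKM + 0.1), which shrinks low values less, they were 4.26 and 5.95. From low to high, the order of conditions was CBAP-reconstituted, sh-Ctrl, CBAP knockdown and CBAP knockout, and no neighbours in it shared a range of values. In rank by FPKM among the 13453 genes, SLC38A5 moved from between 11386 and 12318 in the expressing libraries to between 4267 and 4796 in the deficient libraries, where rank 1 is the highest gene.

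The listed genes around SLC38A5 did not separate the classes. Within 100 kb of its start 4 other genes were in the table, and for each of them the CBAP-deficient and CBAP-expressing libraries overlapped. So did those of most tested genes, since only 4.67% lay wholly higher and 10.3% wholly lower in the deficient libraries. SLC38A5 itself was chosen for its high values there. FTSJ1, a tRNA methyltransferase gene that begins 5.8 kb away, had 27.3 to 35.5 FPKM in the expressing and 25.3 to 33.2 in the deficient libraries. EBP, a sterol isomerase of cholesterol synthesis 51.5 kb away, had 67.8 to 84.3 against 51.4 to 80.1 FPKM. PORCN, which acylates Wnt proteins, was at 2.94 and 3.29 FPKM in the knockdown and 6.80 and 6.46 in the knockout libraries, on either side of the 4.46 to 4.77 in the expressing libraries. TBC1D25 had the same arrangement, with 3.86 and 4.34 FPKM in knockdown cells, 7.77 and 7.47 in knockout cells and 5.45 to 5.91 in the expressing cells.

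The 5 genes with the pattern most like that of SLC38A5 were picked by the root mean square difference of their log2(FPKM + 1) values over the 8 libraries, each gene centred on its own mean, among 11426 other genes, for which its median was 1.90. IL10RB, a subunit of the receptors for interleukin-10 and related cytokines, was nearest at 0.221, with 8.09 and 9.09 FPKM in knockdown and 12.3 and 12.1 in knockout libraries. An entry named for HOXC4, HOXC5 and HOXC6 followed at 0.439, then HOXC10 at 0.463, both of them homeobox genes, and IFNAR2, a subunit of the type I interferon receptor, at 0.737. These 4 entries were listed at 0 in all 4 CBAP-expressing libraries, so their nearness rests on listed zeros. Whether such a 0 was a measured one is not known. In some library 710 genes were listed at 0 while at 5 FPKM or more in another, a count that includes genes silent in a condition. Listed at 0 in all 4 expressing and at 5 FPKM or more in all 4 deficient libraries were 2 genes, and 1 gene was the reverse. TRPM2, a calcium-permeable channel, came next at 0.891, with 2.68 and 2.40 FPKM in sh-Ctrl, 0.0422 and 0.0799 in CBAP-reconstituted and 7.25 to 7.83 in the deficient libraries. This likeness describes 8 libraries that fall into the same 4 conditions and carries no test.

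The other 9 members were compared first with all libraries as classes of 4, the comparison the study was built on. A linear model was fitted to log2(FPKM + 1) of 11427 genes with limma, and a gene was called at a Benjamini-Hochberg adjusted p under 0.05. None of the 9 was called, where 0.621% of all tested genes were called in either direction, and 4 of the 9 had an unadjusted p under 0.05, as did 21% of all tested genes. These 4 were SLC38A2, SLC7A6, SLC7A11 and SLC1A4. With the set entered as a covariate, limma called 3 of them, SLC38A2 (adjusted p = 0.0308), SLC7A6 (adjusted p = 0.0305) and SLC7A11 (adjusted p = 0.0469), all higher in CBAP-deficient cells, and that fit called 12.3% of all tested genes. These 3 were also the members, besides SLC38A5, in which every deficient library lay above every expressing library, as 4.67% of all tested genes did. No member lay wholly below, against 10.3% of all tested genes. Since the members were named with earlier results of these data known, these shares describe the list and do not test it. The median log2 change was 0.08 over the 9 and -0.04 over all tested genes.

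Within the shRNA set, CBAP knockdown minus sh-Ctrl, limma called none of the 9 members, where 12.3% of all tested genes were called, and 4 of the 9 had an unadjusted p under 0.05, as did 30.3% of all tested genes. Within the CRISPR set, CBAP knockout minus CBAP-reconstituted, 5 of the 9 were called, which is near the share of 49.9% of all tested genes called in either direction. Of these, 4 were higher in CBAP knockout cells, namely SLC1A4, SLC7A11, SLC38A2 and SLC7A6, where 23.9% of all tested genes were higher, and 1 was lower, SLC38A1, where 25.9% were lower. The difference between the changes in the sets was called for 3 of the 9, SLC1A4, SLC7A11 and SLC38A1, where it was called for 33.8% of all tested genes. The median log2 change of the 9 was 0.04 with knockdown and 0.30 with knockout, against -0.06 and 0 over all tested genes. Leaving out any 1 library of the CRISPR set, which leaves 1 in its condition, lowered the number of members called and that of all tested genes called.

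**Figure D1:**
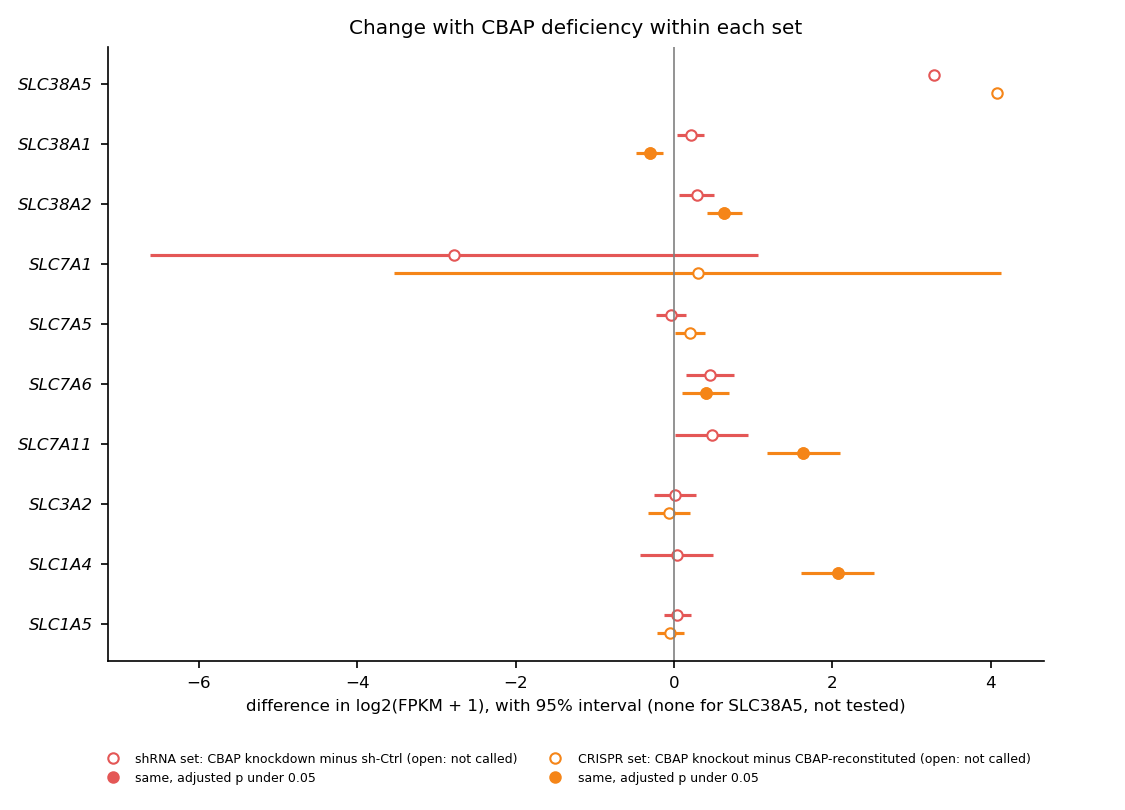
Difference in log2(FPKM + 1) between CBAP-deficient and CBAP-expressing cells within the shRNA set (red) and the CRISPR set (orange), with 95% intervals from limma; filled points have an adjusted p under 0.05. SLC1A4 changed by 2.07 in the CRISPR set and by 0.04 in the shRNA set, SLC38A1 lay on opposite sides of 0, and the wide intervals of SLC7A1 come with 1 listed 0; SLC38A5 is shown without an interval because it was not tested.

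Among the sodium-coupled carriers, SLC38A2 rose in the CRISPR set and SLC38A1 fell. SLC38A2, which is induced when amino acids are scarce, was at 63.2 and 53.0 FPKM in sh-Ctrl, 70.3 and 71.4 in knockdown, 51.5 and 52.6 in reconstituted and 79.1 and 84.1 in knockout libraries. Every deficient library was thus above every expressing one, and no neighbouring conditions overlapped. Its log2 change was 0.64 in the CRISPR set (SE 0.0887, adjusted p = 0.00252, limma with Benjamini-Hochberg adjustment) and 0.29 in the shRNA set (SE 0.0887, adjusted p = 0.0916). The changes did not differ past the threshold between the sets (-0.35, 95% interval -0.66 to -0.04, adjusted p = 0.0808). Without sh-Ctrl replicate 1, the higher of the sh-Ctrl libraries, the change in the shRNA set was 0.41 with an adjusted p of 0.0361. Without sh-Ctrl replicate 2 it was 0.16 with an adjusted p of 0.163, and the difference was -0.48 with an adjusted p of 0.0136. The difference also passed under quantile normalization (-0.47, adjusted p = 0.0485).

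SLC38A1, a sodium-coupled carrier of the same substrates, was at 42.7 and 38.2 FPKM in sh-Ctrl, 46.2 and 47.5 in knockdown, 45.8 and 46.7 in reconstituted and 36.2 and 38.3 in knockout libraries. The knockout libraries were the lowest together with sh-Ctrl, and the reconstituted and knockdown libraries overlapped at the top. Its log2 change was -0.31 in the CRISPR set (SE 0.068, adjusted p = 0.0135) and 0.21 in the shRNA set (SE 0.068, adjusted p = 0.103), and the changes differed by 0.52 (SE 0.0962, adjusted p = 0.0119, limma). The call in the CRISPR set was lost without CBAP-reconstituted replicate 1 (adjusted p = 0.0677), CBAP-reconstituted replicate 2 (0.0829) or CBAP knockout replicate 1 (0.077), and under quantile normalization (0.0931). The difference was lost without either CBAP-reconstituted library (0.0548 and 0.061).

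With SLC38A5 at under 1 FPKM, the membrane SLC38 transcripts of CBAP-expressing cells were almost entirely those of SLC38A1 and SLC38A2. SLC38A5 made up 0.217% to 0.809% of the summed FPKM of this group in the expressing libraries and 10.9% to 14.1% in the deficient libraries. The sum itself was 91.9 to 107 FPKM in the expressing and 131 to 144 in the deficient libraries, without overlap. SLC38A1 made up 39.8% and 41.5% of it in sh-Ctrl, 46.9% and 46.8% in reconstituted, 35.2% and 34.7% in knockdown and 26.7% and 26.6% in knockout libraries. These shares contain SLC38A5 and are therefore a description.

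**Figure D2:**
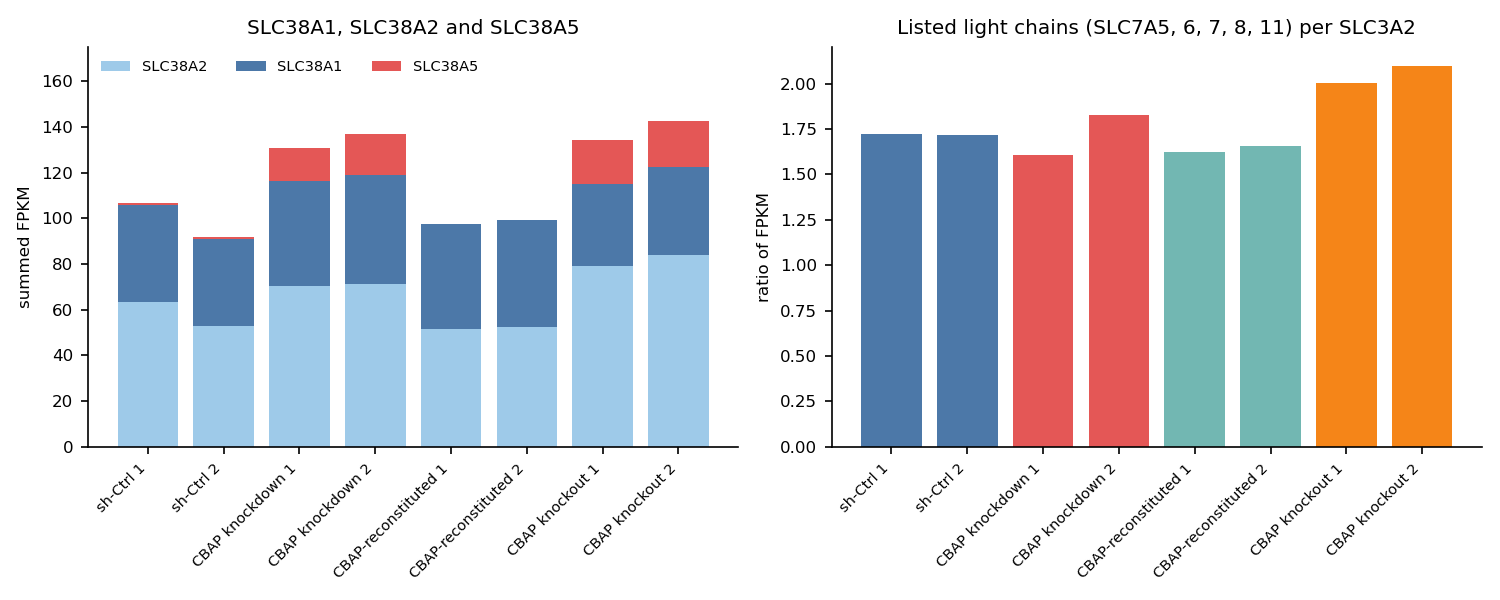
Left, FPKM of SLC38A2, SLC38A1 and SLC38A5 stacked for each library from 0; right, summed FPKM of the listed SLC7 light chains divided by the FPKM of SLC3A2. SLC38A5 adds 14.3 to 20.4 FPKM in the deficient libraries, and the ratio was 2.01 and 2.10 in the knockout libraries and at most 1.83 in the others.

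The neutral amino acid exchangers SLC1A4 and SLC1A5 behaved differently from one another. SLC1A4, also known as ASCT1 and a carrier of alanine, serine and cysteine, was at 6.79 and 6.90 FPKM in reconstituted and 32.1 and 31.6 in knockout libraries, and at 12.5 and 8.77 in sh-Ctrl and 9.29 and 12.5 in knockdown libraries. The knockout libraries stood above the other 6, whereas the sh-Ctrl and knockdown libraries overlapped. Its log2 change was 2.07 in the CRISPR set (SE 0.187, adjusted p = 0.000572) and 0.04 in the shRNA set (95% interval -0.43 to 0.50, adjusted p = 0.93). The changes differed by -2.03, shRNA set minus CRISPR set (SE 0.264, adjusted p = 0.00401, limma with Benjamini-Hochberg adjustment). No single library, when left out, ended the call of either value.

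SLC1A5, or ASCT2, a major glutamine carrier of dividing cells, had 93.9 to 112 FPKM in the expressing and 94.1 to 108 in the deficient libraries. Its log2 change was 0.04 in the shRNA set (95% interval -0.13 to 0.22) and -0.05 in the CRISPR set (95% interval -0.22 to 0.13), and neither was called (adjusted p = 0.711 and 0.622). The order of its conditions, sh-Ctrl, knockdown, knockout and reconstituted, put 1 expressing condition at each end. For 100 FPKM of SLC1A5 there were 29.8 and 29.6 FPKM of SLC1A4 in knockout libraries and 6.07 to 13.3 in the other 6.

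Of the light chains, SLC7A11 and SLC7A6 were higher in CBAP knockout cells, and SLC7A5, the most abundant, was not called. SLC7A11, or xCT, which imports cystine for glutathione synthesis, was at 2.18 and 1.16 FPKM in sh-Ctrl, 2.73 and 2.56 in knockdown, 1.93 and 2.18 in reconstituted and 8.08 and 8.85 in knockout libraries. All deficient libraries were above all expressing ones, with the knockout libraries far above the rest. Its log2 change was 1.63 in the CRISPR set (SE 0.187, adjusted p = 0.00129) and 0.48 in the shRNA set (SE 0.187, adjusted p = 0.157), and the changes differed by -1.16 (SE 0.264, adjusted p = 0.0227, limma). The change in the CRISPR set was called in every fit in which SLC7A11 could be tested, and with a mean of at least 5 FPKM required it was not tested. The difference between the sets was lost without any 1 of the 4 CRISPR-set libraries (adjusted p = 0.0549 to 0.0895) and with a pseudocount of 0.1 (0.0548) or quantile normalization (0.0743). Without sh-Ctrl replicate 1, the change in the shRNA set was 0.76 with an adjusted p of 0.0349, and without sh-Ctrl replicate 2 it was 0.19 with an adjusted p of 0.306.

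SLC7A6, or y+LAT2, which exchanges cationic for neutral amino acids, was at 15.4 and 13.5 FPKM in sh-Ctrl, 18.1 and 22.6 in knockdown, 16.2 and 16.9 in reconstituted and 23.2 and 21.2 in knockout libraries. All deficient libraries were again above all expressing ones, and the knockdown and knockout libraries overlapped. The log2 change was 0.46 in the shRNA set (SE 0.121, adjusted p = 0.0652) and 0.40 in the CRISPR set (SE 0.121, adjusted p = 0.0383), with a difference of 0.06 whose 95% interval ran from -0.37 to 0.48. The call in the CRISPR set was lost without any 1 of the 4 CRISPR-set libraries (adjusted p = 0.0759 to 0.16). The change in the shRNA set passed the threshold under quantile normalization (0.0253) and median-ratio scaling (0.0248), without CBAP knockdown replicate 1 (0.0245), and where genes with a listed 0 were left out (0.0381) or these zeros were taken as missing (0.0428). The exons of SLC7A6 overlap those of SLC7A6OS on the opposite strand by 3372 bp, and whether fragments were assigned by strand is not given in the sources used here, so their fragments may not have been told apart. SLC7A6OS was at 6.88 to 8.83 FPKM in the expressing and 9.08 to 10.1 in the deficient libraries, again without overlap.

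SLC7A5, or LAT1, the main leucine carrier of activated T cells, was at 179 and 197 FPKM in sh-Ctrl, 195 and 172 in knockdown, 197 and 197 in reconstituted and 224 and 229 in knockout libraries. Only the knockout libraries lay outside the range of the others. Its log2 change was 0.20 in the CRISPR set (SE 0.078, 95% interval 0.01 to 0.40, adjusted p = 0.0769) and -0.04 in the shRNA set (95% interval -0.23 to 0.15, adjusted p = 0.784). With only the CRISPR-set libraries in the fit the adjusted p was 0.00373, under quantile normalization 0.0101, and without CBAP knockdown replicate 1 or 2 it was 0.0305 and 0.0306. The difference of -0.24 between the sets (adjusted p = 0.147) passed under quantile normalization (0.0461) and without CBAP knockdown replicate 1 (0.0406). The table also lists SLC7A5P1 and SLC7A5P2, pseudogene copies that could take or lend reads of SLC7A5.

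SLC3A2, the heavy chain that these light chains share, was at 115 to 133 FPKM in the expressing and 108 to 135 in the deficient libraries, and its log2 change was 0.02 (95% interval -0.25 to 0.28) in the shRNA set and -0.06 (95% interval -0.33 to 0.20) in the CRISPR set, neither of them called (adjusted p = 0.939 and 0.664). The summed light chains per SLC3A2 came to 1.72 and 1.72 in sh-Ctrl, 1.61 and 1.83 in knockdown, 1.63 and 1.66 in reconstituted and 2.01 and 2.10 in knockout libraries. SLC7A5 made up 86.9% to 92.7% of the light chain sum in every library. SLC7A11 made up 3.15% and 3.40% of it in knockout libraries and 0.542% to 1.29% in the others.

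SLC7A1, or CAT1, the carrier of arginine and lysine that needs no heavy chain, was at 42.4 and 39.6 FPKM in sh-Ctrl, 37.1 and 35.2 in reconstituted and 44.6 and 44.7 in knockout libraries, and at 36.5 in replicate 1 of the knockdown cells. In CBAP knockdown replicate 2 it was listed at 0. A listed 0 need not be a measured 0, since 83 genes were listed at 0 in exactly 1 library while at 20 FPKM or more in the other 7, and 19 of these zeros fell in CBAP knockdown replicate 2. With this value included, the log2 change in the shRNA set was -2.78 (SE 1.55, adjusted p = 0.291), and the shared estimate of spread left the change of 0.30 in the CRISPR set uncalled (SE 1.55, adjusted p = 0.898). Without CBAP knockdown replicate 1, which leaves the listed 0 alone in its condition, the change in the shRNA set was -5.39 (adjusted p = 7.49e-06). With listed zeros taken as missing, a choice made after seeing the data, SLC7A1 was called higher in CBAP knockout cells (0.30, adjusted p = 0.0117) and not called in knockdown cells (-0.16, adjusted p = 0.235), and the difference of -0.46 between the sets was called (adjusted p = 0.0194, limma). With only the CRISPR-set libraries in the fit, its adjusted p in that set was 0.00565.

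Other genes of amino acid transport were taken from a list of 45, of which 21 were in the table and 15 were tested. With limma, none of the 15 was called with all libraries as classes or in the shRNA set, where 0.621% and 12.3% of all tested genes were called. An unadjusted p under 0.05 was found for 3 and 1 of the 15, against 21% and 30.3% of all tested genes. In the CRISPR set 4 were higher and 4 lower in knockout cells, near the shares of all tested genes (23.9% higher and 25.9% lower), and the median of the 15 was -0.09. SLC6A9, the glycine transporter GLYT1, was at 1.06 and 0.819 FPKM in reconstituted and 4.01 and 4.04 in knockout libraries (log2 change 1.38, adjusted p = 0.00172). SLC43A1, a leucine carrier, rose by 0.85, SLC38A10 by 0.60 and SLC36A4 by 0.56 on the log2 scale. CTNS, the lysosomal cystine exporter, was at 8.15 and 7.92 FPKM in reconstituted and 4.02 and 3.90 in knockout libraries (log2 change -0.87, adjusted p = 0.0006), while sh-Ctrl was at 3.94 and 4.34. The other 3 that fell were SLC16A10, a carrier of aromatic amino acids (-0.69), SLC43A2 (-0.44) and SLC36A1, the proton-coupled carrier of lysosomes (-0.21). The difference between the sets was called for 5 of the 15, namely these 4 that rose and CTNS, a share near the 33.8% of all tested genes. Of the 15, only SLC38A6 was higher in every deficient than in every expressing library, as were 4.67% of all tested genes. Its log2 change was 0.32 in the shRNA set (adjusted p = 0.169, limma) and 0.31 in the CRISPR set (adjusted p = 0.0975). SLC16A10 and SLC43A2 were lower in every deficient than in every expressing library, as were 10.3% of all tested genes.

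Of the genes that sense amino acids upstream of mTORC1, 29 were tested. With all libraries as classes limma called 1 of them, where 0.621% of all tested genes were called. In the shRNA set it called 2, both lower, where 12.3% of all tested genes were called in either direction. In each of these comparisons 6 of the 29 had an unadjusted p under 0.05, against 21% and 30.3% of all tested genes. RRAGA, the Rag A GTPase, was the 1 called with all libraries as classes, at 48.5 to 50.6 FPKM in the expressing and 31.9 to 35.8 in the deficient libraries (log2 change -0.53, SE 0.0705, adjusted p = 0.0336, and 0.0574 to 0.188 without any 1 library other than CBAP knockdown replicate 1). It was lower in the shRNA set (-0.58, adjusted p = 0.00259) as in the CRISPR set (-0.49, adjusted p = 0.000535). LAMTOR4, a subunit of the Ragulator complex that anchors the Rag GTPases, also fell in both sets, by 0.35 (adjusted p = 0.0404) and by 0.89 (adjusted p = 0.000477) on the log2 scale. The call of LAMTOR4 in the shRNA set was lost in 10 of 18 alternatives, under quantile normalization (adjusted p = 0.13) among them. In the CRISPR set 3 of the 29 were higher and 9 lower, where 23.9% of all tested genes were higher and 25.9% lower. Those higher were SESN2, a leucine sensor that is also induced by stress (1.12), FNIP1 (0.78) and KICS2 (0.47). In the shRNA set KICS2 went the other way (-0.63, adjusted p = 0.051, limma), while SESN2 changed by 0.0065 and FNIP1 by -0.0042. Among those lower in the CRISPR set were FLCN, the partner of FNIP1 (-0.83), and CASTOR1, the arginine sensor (-0.63). The median of the 29 was -0.12 in the CRISPR set and -0.06 in the shRNA set, against 0 and -0.06 over all tested genes.

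Glutathione and thiol enzymes, which use the cystine that SLC7A11 imports, gave 12 tested genes. With all libraries as classes limma called none, where 0.621% of all tested genes were called. An unadjusted p under 0.05 was found for 4 of the 12, against 21% of all tested genes. It was found for 7 of the 12 in the shRNA set, against 30.3% of all tested genes. In the shRNA set 1 was called, and in the CRISPR set 9, of which 5 were higher and 4 lower in knockout cells, where 12.3% and 49.9% of all tested genes were called. CHAC1, which degrades glutathione, was at 5.74 and 6.77 FPKM in reconstituted and 20.8 and 20.3 in knockout libraries (log2 change 1.58, adjusted p = 0.0194, and 0.0683 to 0.0983 without any 1 of these 4 libraries). GGT7 rose by 0.84, and GSR, glutathione reductase, by 0.79 on the log2 scale. In the shRNA set GGT7 went the other way (-0.48, adjusted p = 0.123, limma), and GSR was at 0.28 (adjusted p = 0.115). GPX1, a glutathione peroxidase, was lower in knockout cells (-0.88), as were CHAC2 (-0.83) and GSS, glutathione synthetase (-0.30), and GSS was lower in knockdown cells too (-0.43, adjusted p = 0.0107).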

How the data were processed

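RNA-seq of 8 Jurkat libraries, 2 per condition, was analysed. The authors extracted total RNA with the RNeasy kit, sequenced 100-bp paired-end reads on an Illumina instrument, aligned them to hg19 with TopHat 2 and estimated FPKM with cuffdiff, and they deposited these FPKM values as 1 table with a column per library. Their notes also name Bowtie and CASAVA 1.8. The version of Cufflinks, the annotation, the strand setting and the scaling are not given in the sources used here. No counts were used, so depth is unknown and no counting interval was computed.

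Genes whose FPKM averaged 1 or more were tested on log2(FPKM + 1) with limma 3.58.1 (R 4.3.3, empirical Bayes with a mean trend, two-sided, Benjamini-Hochberg adjustment over 11427 genes, threshold 0.05), which was first tested on simulated data. A fold change on this scale understates the change of low genes. One model had 2 classes of 4 libraries, and another, with a mean for every condition, gave the knockdown change, the knockout change and their difference. The members and gene lists were chosen with earlier results of these data known. Named were all members, TMEM102, the other transporters called (up to 4 per direction and set), up to 3 per direction and set of the sensing and of the glutathione genes, and the 5 genes most like SLC38A5. SLC38A6, SLC7A6OS, the genes within 100 kb of SLC38A5 and the markers named were chosen after their values were seen. Alternatives changed the pseudocount, filter, scaling, trend or covariates, added a replicate block, or left out single libraries, and the treatment of listed zeros was added after seeing the data. Gene positions are from GENCODE release 44 lifted to GRCh37, and promoters are from RefSeq on GRCh38.p14. Of the members, 9 had a promoter entry. Python 3.11.15, pandas 2.3.3 and matplotlib 3.10.9 were used.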

Additional observations from a re-analysis of the deposited data

Results flagged for a closer look

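In classes of 4 libraries, 1 library lay far from the other 3 by Dixon's criterion for 3 members and 3 listed genes. For 4 independent draws from 1 normal distribution, chance gives this in about 1 in 20 groups, or 3.1 of the 62 groups examined. Each class here joins 2 conditions of 2 libraries, and the genes share these libraries, so that rate need not hold. In sh-Ctrl replicate 1, SLC38A2 was at 63.22 FPKM, above the 51.5 to 53.0 of the other CBAP-expressing libraries, and SLC7A5 at 178.9 FPKM, below them. SLC1A5 was at 94.07 FPKM in CBAP knockdown replicate 2, below the other CBAP-deficient libraries. SESN2 at 10.28 FPKM and CHAC1 at 15.79 FPKM were high in sh-Ctrl replicate 1, and GSR at 43.99 FPKM was high in sh-Ctrl replicate 2.

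The change with CBAP deficiency differed between the sets, by the test of the difference itself (limma, adjusted p under 0.05), for 3 members and 14 other genes named. That difference was called for 33.8% of all tested genes. Apart from TMEM102, the other genes had been named because they were called within a set, so their number cannot be read against that share. The values are the log2 change in the shRNA set minus that in the CRISPR set. They were 0.515306 for SLC38A1, -1.15674 for SLC7A11 and -2.03121 for SLC1A4. Among the other transporters they were -1.46066 for SLC6A9, -0.719678 for SLC36A4, -0.770054 for SLC38A10, -1.06934 for SLC43A1 and 0.818355 for CTNS. Among the sensing genes they were 0.751997 for CASTOR1, 0.541392 for LAMTOR4, 0.68777 for FLCN, -0.784565 for FNIP1 and -1.10718 for KICS2. Among the glutathione genes they were -0.505672 for GSR, 0.612253 for GPX1 and -1.31748 for GGT7. TMEM102 had -0.509308, with every value of the CRISPR set listed at 0. These calls were lost in 9 of 14 alternatives for TMEM102, in 6 of 16 for SLC7A11, in 2 of 16 for CASTOR1 and KICS2, and, of 17, in 7 for GSR, 6 for SLC36A4, 4 for SLC38A10, 3 for GPX1 and LAMTOR4, 2 for SLC38A1 and 1 for FLCN and GGT7. SLC1A4, SLC6A9, SLC43A1, CTNS and FNIP1 kept theirs in every alternative run. The sets also differ in how the cells were made and in the CBAP-reconstituted libraries that stood apart in CD28, CD7 and CD79A, and these cannot be told apart from the effect of the set.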

How the results depend on the processing

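Having 2 libraries per condition and an unknown depth limits every value, and the cause of the changes below was not tested. Of the 9 members tested, 0 were called with all libraries as classes, 1 under quantile normalization or median-ratio scaling and 3 with the set as a covariate, which also called 1 other transporter. In the shRNA set 0 members became 1 under quantile normalization, median-ratio scaling, genes with no listed 0 or listed zeros as missing, and 0 to 2 when a library was left out, as for the other transporters (0 to 2). In the CRISPR set 5 members became 3 to 7 when a library was left out, and 8 other transporters became 5 with a mean of at least 5 FPKM and 3 to 10 when a library was left out. For the difference between the sets, 3 members became 1 to 5 and 5 other transporters 3 to 6 when a library was left out, and 9 without a filter. The libraries whose omission changed a call are named beside the members.

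Of the other genes named in the CRISPR set, CHAC2, GGT7, GSS, SLC16A10 and SLC38A10 lost their call in 1 or 2 of 18 alternatives, SESN2 and SLC36A4 in 4 of 18, and SLC43A2, SLC36A1 and KICS2 in 6, 7 and 9 of 17.

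Directions turned only for members that were not called. With all libraries as classes, the log2 change was 0.053 for SLC38A1, 0.14 for SLC3A2 and 0.15 for SLC1A5 under quantile normalization, 0.014 for SLC3A2 and 0.035 for SLC1A5 under median-ratio scaling, and 0.11 for SLC7A1 with listed zeros as missing. Leaving out a library gave -0.047 to 0.045 for SLC1A5, -0.11 to 0.0196 for SLC38A1, -0.064 to 0.041 for SLC3A2 and -1.72 to 0.11 for SLC7A1. In the shRNA set it was 0.0055 for SLC7A5 under quantile normalization and 0.029 under median-ratio scaling, and leaving out a library gave -0.13 to 0.051 for SLC7A5, -0.20 to 0.27 for SLC1A4, -0.042 to 0.13 for SLC1A5 and -0.14 to 0.18 for SLC3A2. In the CRISPR set, quantile normalization gave 0.19 for SLC3A2 and 0.18 for SLC1A5, and for the difference -0.095 and -0.065. Leaving out a library gave differences of -0.077 to 0.24 for SLC3A2 and -0.094 to 0.21 for SLC7A6.

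The replicate numbers did not establish pairs, since deviations of same-numbered libraries correlated at 0.146 for the shRNA set, and at 0.0239 for the CRISPR set. With the replicate block, all genes called fell from 71 to 11 with all libraries as classes, and among members SLC7A6 in the CRISPR set had an adjusted p of 0.0651.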

Other observations

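SLC6A20, a proline carrier, was listed at 0 in 6 libraries and at 1.88 and 1.92 FPKM in the CBAP knockout libraries, and its mean was too low for it to be tested. SLC38A3, a glutamine carrier, was also not tested, with 1.15 and 1.11 FPKM in knockout libraries and 0 to 0.471 in the others. Both were chosen after their values were seen.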
